A study of Capra hircus with 12 samples.

Results

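The effect of LOXL2 on gene expression was examined in cells of the middle cartilage layer (MLC) of the goat temporomandibular joint (TMJ). Its members were the 6 RNA-seq libraries whose labels name MLC, out of 12 in the series, and the remaining 6 came from the superficial layer (SLC). The study asked whether LOXL2 counters the response of TMJ cells to the inflammatory cytokine IL-1β. Per the study's methods, joints came from abattoirs and were of female goats of 6 to 9 months. The layers were separated by collagenase digestion, and cells were frozen, shipped and used at passages 3 to 5. In 1 group of 3 MLC libraries cells received IL-1β (10 ng for 1 h). In the other, of 3 libraries labelled IL-1β + LOXL2, cells were first incubated overnight with an adenovirus (Ad5-LOXL2) that carries LOXL2 and then received the same IL-1β. An empty adenovirus is named in the methods of a flow cytometry assay but not in those of the RNA libraries, so whether the IL-1β group received it is not known here. LOXL2 and the virus cannot be told apart, and MLC cells without IL-1β were not analysed here. Nothing says that the replicates are separate animals or cultures, so p-values measure the spread between these libraries, which may be technical. The IL-1β libraries held 14158607, 15330697 and 14976796 counts of reads on genes, and the IL-1β + LOXL2 libraries 19459045, 14188227 and 18886663.

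LOXL2 is a secreted, copper-dependent amine oxidase that oxidizes lysines of collagen and elastin, the step that starts their crosslinking. TMJ condylar cartilage is a fibrocartilage in which both type I and type II collagen occur, and its cells hold a matrix of collagen fibrils, the large proteoglycan aggrecan and hyaluronan. IL-1β binds its receptor on these cells and, through IRAK kinases and NF-κB, raises cytokines, prostaglandin synthesis and matrix-degrading enzymes.

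The labels were first checked on <i>LOXL2</i> itself and on cell type markers. <i>LOXL2</i> (chromosome 8, 70222328 to 70337511 in the goat genome ARS1.2, protein-coding) had 12223, 13866 and 12979 normalized counts with IL-1β and 12922, 12577 and 11812 with IL-1β + LOXL2. The groups overlapped, with IL-1β + LOXL2 replicate 3 the lowest library, and the goat gene did not pass the test (log2 fold change -0.07, standard error 0.09, adjusted p = 0.595 from edgeR). Whether reads of the adenoviral sequence could be counted on it is not known here. All directions below rest on the labels. The cells carried some chondrocyte transcripts. <i>ACAN</i>, the aggrecan core protein, had 6927, 5549 and 6608 with IL-1β and 6190.1, 5187 and 4899 with IL-1β + LOXL2. <i>SOX9</i>, the master regulator of cartilage genes, had 1479, 1232 and 1432 with IL-1β and 1358, 1228 and 1142 with IL-1β + LOXL2. <i>COL2A1</i>, the type II collagen of hyaline cartilage, had 331, 165 and 298 with IL-1β and 286, 199 and 286 with IL-1β + LOXL2. In each of these 3 genes the groups overlapped, and none passed the test. The summed normalized count of a chondrocyte identity list was 36209, 33447 and 36099.8 with IL-1β and 34866, 30226 and 28249 with IL-1β + LOXL2, with <i>COL11A1</i> its most abundant gene. Some members of this list had too few counts to be tested. Over the 6 MLC libraries <i>MATN1</i> had 0 counts, <i>COL9A2</i> 28, <i>MATN3</i> 35, <i>CRTAC1</i> 41 and <i>CILP</i> 58. Markers of other cell types were mixed, given here as counts over the 6 MLC libraries. Of the leukocyte markers <i>TYROBP</i> had 0 and <i>PTPRC</i> 2, while <i>CD14</i> had 9250 and <i>CD68</i> 572. Of the endothelial markers <i>CDH5</i> and <i>TIE1</i> had 1 each and <i>PECAM1</i> 9, while <i>VWF</i> had 351 and <i>ERG</i> 5664. The skeletal muscle factors <i>MYOD1</i> and <i>MYOG</i> had 0. Of the osteoblast markers <i>DMP1</i> had 0, while <i>RUNX2</i> had 2255 and <i>SPP1</i> 9663. Of the tenocyte markers <i>TNMD</i> had 0, while <i>SCX</i> had 850, <i>MKX</i> 2780 and <i>DPT</i> 4721. Of the pericyte and smooth muscle markers <i>RGS5</i> had 9 and <i>MCAM</i> 40, while <i>ACTA2</i> had 102919, <i>CSPG4</i> 33188, <i>NOTCH3</i> 2648 and <i>MYH11</i> 2607. The summed normalized counts of some marker lists differed without overlap between groups, which was not tested. For endothelial markers they were 1456, 1408 and 1402 with IL-1β and 1491, 1700.3 and 1741 with IL-1β + LOXL2. Most of this difference came from <i>EGFL7</i>, with means of 418.8 and 632.2, which was higher with IL-1β + LOXL2 (log2 fold change 0.59, standard error 0.15, adjusted p = 0.0249 from edgeR), while 2 of the 4 members tested had a log2 fold change below 0. The tenocyte markers summed to 1673, 1565 and 1608 with IL-1β and 1695, 1736 and 1710.5 with IL-1β + LOXL2, with 3 of 5 members tested above 0, and the hypertrophic chondrocyte markers to 1738, 1721 and 1722 with IL-1β and 1758, 1748 and 1749 with IL-1β + LOXL2, with 2 of 4 above 0. No member of either list passed the test. Of the skeletal muscle markers 1 was tested, nebulin or <i>NEB</i>, and it made up most of a sum of 188, 249.7 and 249.5 with IL-1β and 184, 129 and 111 with IL-1β + LOXL2. The part of other cell types in the results was not tested.

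A single library stood between the groups. On the first principal component of the tested genes, which held 61.6% of the variance, the IL-1β libraries scored -24.7, -15.5 and -24.3, and the IL-1β + LOXL2 libraries scored -2.5, 27.8 and 39.2. Over the genes called higher below, the median log2 ratio to the mean of the IL-1β libraries was 0.21 in IL-1β + LOXL2 replicate 1, 0.48 in replicate 2 and 0.64 in replicate 3. Over the genes called lower it was -0.28, -0.63 and -0.74 in the same order. IL-1β + LOXL2 replicate 1 was the library of its group nearest to the IL-1β mean in 2823 of 2958 called genes (95.4%). The groups did not overlap in 2794 of the 2958. Where a lack of overlap is given below for a called gene, it describes the gene and adds no further support. Results are given with all 6 libraries, and counts of gene lists also without that library.

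Of 13664 genes with enough counts to be tested, 1341 (9.81%) were higher and 1617 (11.8%) were lower with IL-1β + LOXL2 at an adjusted p under 0.05 from edgeR's quasi-likelihood test. Below, "rose" and "fell" mean past this threshold. A value in parentheses after a gene symbol is its log2 fold change, a median is that of the log2 fold changes of a list, and paired counts give the genes that rose and then those that fell. The change was 2-fold or larger for 16 of the genes that rose and 125 of those that fell. Without IL-1β + LOXL2 replicate 1, 3276 of 13838 genes (23.7%) rose and 3377 (24.4%) fell. The Wald test of DESeq2 called 3270 genes with all 6 libraries, but <i>SLC2A3</i>, <i>PFKL</i>, <i>COL18A1</i>, <i>HYAL3</i> and <i>ND3</i> did not pass it, and it gave no adjusted p for <i>PAPPA</i>, <i>WNK3</i>, <i>SFRP2</i> and <i>TCAP</i>. Without IL-1β replicate 2 the edgeR counts were 212 and 610, and without IL-1β + LOXL2 replicate 3 they were 84 and 390. Without IL-1β replicate 1, IL-1β replicate 3 or IL-1β + LOXL2 replicate 2 no gene passed by edgeR (3971, 3782 and 3677 at an unadjusted p under 0.05), nor in a fit on all 12 libraries (3726), so that every call of a gene or list member below is lost in these 4 fits.

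The direction of change was related to how much of the genome a gene covers. Genomic span, the distance from a gene's first to its last annotated base with introns included, was known for 13637 tested genes, and its rank correlation with the log2 fold change across genes, which are not independent replicates, was -0.49. Of the 1364 genes with the shortest spans (median 1921 bases), 334 rose and 26 fell. Of the 1364 with the longest (median 216362 bases), 14 rose and 444 fell. Within single libraries, the rank correlation of span with the log2 ratio to the IL-1β mean was 0.06, -0.12 and 0.10 in the IL-1β libraries and -0.34, -0.48 and -0.49 in the IL-1β + LOXL2 libraries. The trend was weakest in replicate 1 among the IL-1β + LOXL2 libraries, and its part in the results was not tested. With each library's trend on span removed, 1063 genes (7.79%) rose and 937 (6.87%) fell, and 1413 of the 2958 genes were still called. Counts of gene lists are therefore followed by the counts after removal of this trend and by those without IL-1β + LOXL2 replicate 1, written as without replicate 1, where up to 2 more members were tested. They are to be read against the shares over all genes tested. As fitted these were 9.81% higher and 11.8% lower, with the span trend removed 7.79% and 6.87%, and without replicate 1 23.7% and 24.4%. Lists near these shares say little about their members. Examples as fitted are the autophagy genes (5.13% and 10.3%) and the numbered zinc finger genes (5.58% and 13.3%).

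**Figure D1:**
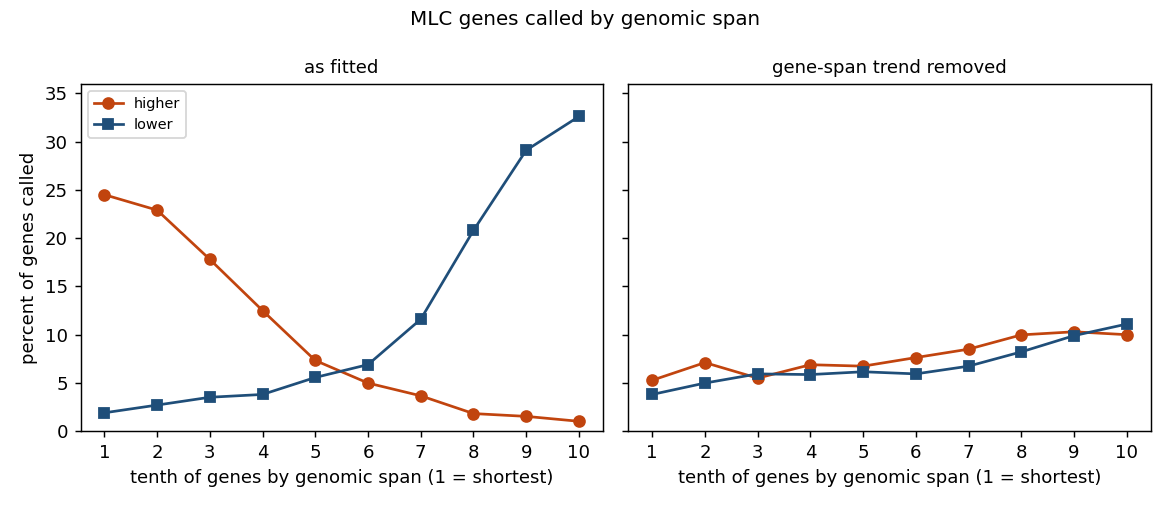
Percent of tested MLC genes called higher (circles) or lower (squares) with IL-1β + LOXL2 in each of 10 bins of genes by genomic span, as fitted (left) and with the span trend of each library removed (right). As fitted, the share called higher fell from 24.5% in the bin of shortest genes to 1.03% in the longest while the share called lower went from 1.91% to 32.6%.

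The 15 genes with the largest decreases were taken among protein-coding genes with a symbol, a mean of at least 50 normalized counts and no overlap between groups. <i>ATP7A</i> (chromosome X, 3146014 to 3304897), the copper pump that loads secreted copper enzymes in the Golgi, including lysyl oxidases, had 345, 267 and 327 normalized counts with IL-1β and 139.8, 52.0 and 40.5 with IL-1β + LOXL2 (log2 fold change -1.98, standard error 0.33, adjusted p = 0.019 from edgeR). <i>SLC39A10</i>, a zinc importer, had 146, 114 and 109.9 with IL-1β and 53.2, 27.1 and 26.7 with IL-1β + LOXL2 (log2 fold change -1.76, standard error 0.26, adjusted p = 0.019 from edgeR). <i>SLC7A11</i>, the cystine importer that feeds glutathione synthesis, had 623, 479.6 and 653 with IL-1β and 328, 140.1 and 137 with IL-1β + LOXL2 (log2 fold change -1.52, standard error 0.27, adjusted p = 0.019). The lack of overlap in these 3 transporters follows from how they were chosen. Replicate 1 of IL-1β + LOXL2 lay between the others and the IL-1β range, as in most called genes. <i>ATRX</i> (chromosome X, 2844617 to 3079823), a chromatin remodeler that deposits histone H3.3 at repeats, had 497, 373 and 495 with IL-1β and 263, 127 and 81.1 with IL-1β + LOXL2 (log2 fold change -1.52, standard error 0.30, adjusted p = 0.019). <i>ATRX</i> and <i>ATP7A</i> are close on the X chromosome. <i>ABL2</i>, a tyrosine kinase that regulates the actin cytoskeleton, had 1158, 1007 and 1218 with IL-1β and 623, 342 and 330.4 with IL-1β + LOXL2 (log2 fold change -1.38, standard error 0.20, adjusted p = 0.019). In <i>ATRX</i> and <i>ABL2</i> replicate 1 again lay in between.

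<i>ZBED6</i>, a transcriptional repressor of <i>IGF2</i>, had 438, 333 and 430.2 with IL-1β and 191, 67.8 and 62.1 with IL-1β + LOXL2 (log2 fold change -1.87, standard error 0.32, adjusted p = 0.019 from edgeR). Its single-exon gene lies within the span of <i>ZC3H11A</i>, which had 2451, 2480.0 and 2468 with IL-1β and 2216, 1725 and 1565 with IL-1β + LOXL2 (log2 fold change -0.43), so the assignment of reads between the pair is uncertain. <i>HS2ST1</i>, the heparan sulfate 2-O-sulfotransferase, had 208, 169.9 and 201 with IL-1β and 94.9, 41.8 and 43.1 with IL-1β + LOXL2 (log2 fold change -1.66, standard error 0.26, adjusted p = 0.019). The other 8 of the 15 largest decreases were <i>NBEAL1</i> (-1.75), the substrate adaptor <i>LRRC58</i> (-1.71), the cullin adaptor <i>ZYG11B</i> (-1.47), the transcription factors <i>USF3</i> (-1.45), <i>FOXN2</i> (-1.39) and <i>ELK4</i> (-1.39), the last a partner of serum response factor, and <i>TMED8</i> (-1.39) and <i>TMPPE</i> (-1.42), all as log2 fold changes. <i>TMPPE</i> lies within the span of <i>GLB1</i>. All 15 still fell with the span trend removed, with log2 fold changes from -2.02 to -1.14.

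Increases were smaller. <i>TNNI2</i>, the inhibitory troponin of fast skeletal muscle, had 39.3, 40.4 and 22.2 normalized counts with IL-1β and 56.4, 91.5 and 106 with IL-1β + LOXL2 (log2 fold change 1.31, standard error 0.29, adjusted p = 0.02 from edgeR). <i>C18H16orf74</i>, a small protein of little known function, had 42.6, 48.7 and 43.3 with IL-1β and 79.3, 121 and 129 with IL-1β + LOXL2 (log2 fold change 1.28, standard error 0.22, adjusted p = 0.019). <i>METTL26</i> had 50.5, 38.3 and 28.5 with IL-1β and 83.4, 84.7 and 84.5 with IL-1β + LOXL2 (log2 fold change 1.11, standard error 0.22, adjusted p = 0.019). These 3 genes had low counts. <i>MGMT</i>, which removes alkyl groups from guanine in DNA, had 292, 347 and 336 with IL-1β and 449, 591 and 654 with IL-1β + LOXL2 (log2 fold change 0.79, standard error 0.14, adjusted p = 0.019), although its span of 265021 bases is long. <i>IGFBP2</i>, a binding protein of insulin-like growth factors, had 2413, 2833 and 2409 with IL-1β and 2961, 4883 and 4959 with IL-1β + LOXL2 (log2 fold change 0.74, standard error 0.16, adjusted p = 0.02). <i>IFI6</i>, an interferon-induced mitochondrial protein, had 644, 700.3 and 637 with IL-1β and 891, 1170.4 and 1339 with IL-1β + LOXL2 (log2 fold change 0.78, standard error 0.14, adjusted p = 0.019). In these 3, replicate 1 of IL-1β + LOXL2 was the nearest to the IL-1β range.

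The other genes of this group were <i>MMP23B</i>, a membrane-anchored metalloproteinase (1.06), <i>GPC3</i>, a heparan sulfate proteoglycan of the cell surface (0.86), <i>GDF1</i>, a TGF-β family ligand (0.83), <i>GP1BB</i>, a platelet glycoprotein (0.80), <i>C6H4orf48</i> (0.79), the mitochondrial ribosomal protein <i>MRPS18C</i> (0.76), <i>CMC1</i>, an assembly factor of cytochrome c oxidase (0.75), and <i>SPATA20</i> (0.73), all as log2 fold changes. After removal of the span trend <i>GPC3</i> (1.15), <i>CMC1</i> (1.01) and <i>MMP23B</i> (0.86) still rose, as did <i>TNNI2</i>, <i>C18H16orf74</i>, <i>METTL26</i>, <i>MGMT</i>, <i>IGFBP2</i> and <i>IFI6</i>.

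Among genes with a symbol and no overlap between groups, the 5 most abundant that fell and the 5 that rose follow. The ferritin heavy chain <i>FTH1</i> (0.40), which rose, and <i>THBS1</i> (-0.44), which fell, were more abundant than some of them but had groups that overlapped. <i>FN1</i>, the adhesive glycoprotein fibronectin, had 289383, 269721 and 287309 normalized counts with IL-1β and 241234, 185945 and 155369.9 with IL-1β + LOXL2 (log2 fold change -0.54, standard error 0.13, adjusted p = 0.0229 from edgeR). <i>COL12A1</i>, a fibril-associated collagen, had 69950.3, 64654 and 69925 with IL-1β and 56116, 42714 and 35412 with IL-1β + LOXL2 (log2 fold change -0.61, standard error 0.14, adjusted p = 0.0205). <i>COL6A3</i> of the pericellular beaded filaments (-0.48), the endocytic receptor <i>LRP1</i> (-0.61) and <i>LTBP2</i>, a microfibril-bound member of the latent TGF-β binding proteins (-0.47), fell as well. <i>ELN</i>, whose product tropoelastin is crosslinked by lysyl oxidases into elastic fibers, had 24620.3, 25145 and 25669 with IL-1β and 28702, 32168 and 33420.0 with IL-1β + LOXL2 (log2 fold change 0.32, standard error 0.09, adjusted p = 0.0275). The change of <i>FN1</i>, <i>COL12A1</i> and <i>ELN</i> was under 2-fold. The other 4 of the 5 that rose were <i>GAPDH</i> of glycolysis (0.37), the ferritin light chain <i>FTL</i> (0.42) and the ribosomal genes <i>RPLP0</i> (0.44) and <i>RPS2</i> (0.40). With the span trend removed, <i>ELN</i> (0.40) and <i>RPLP0</i> (0.25) rose and <i>FN1</i> (-0.33), <i>COL12A1</i> (-0.35) and <i>LRP1</i> (-0.38) fell, whereas the calls of <i>GAPDH</i>, <i>FTL</i>, <i>RPS2</i>, <i>COL6A3</i> and <i>LTBP2</i> were lost.

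**Figure D2:**
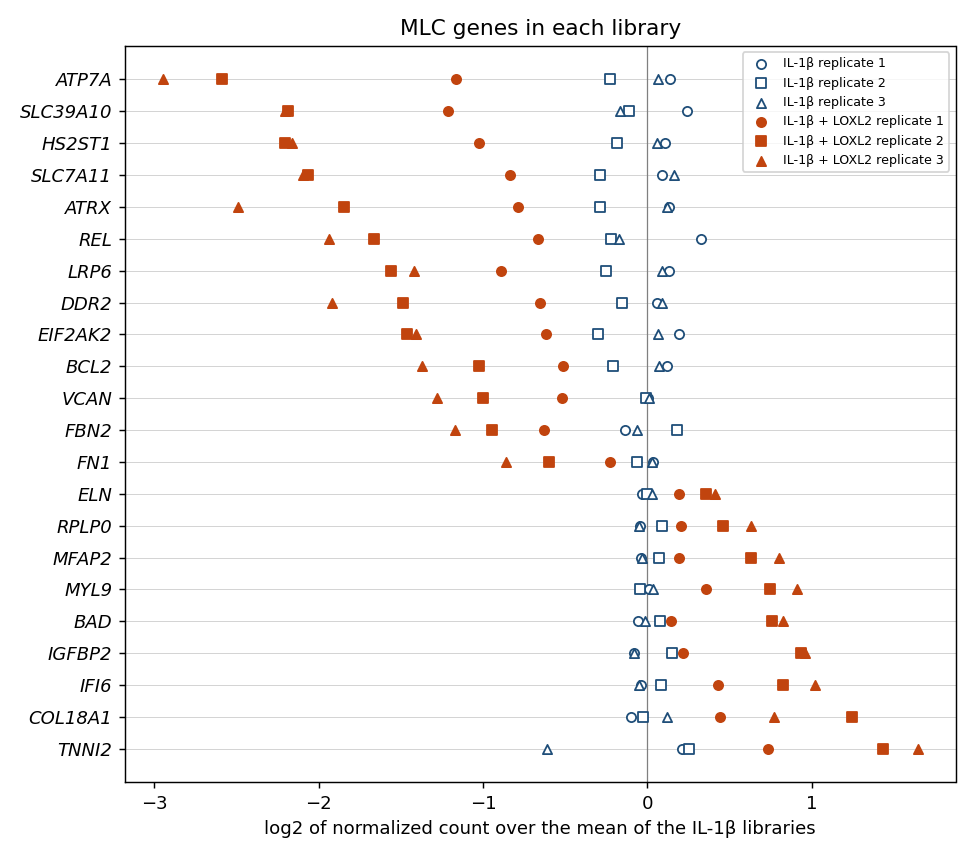
Log2 of the normalized count over the mean of the IL-1β libraries for 22 named genes in each MLC library, with open markers for IL-1β and filled markers for IL-1β + LOXL2. The genes were picked with their values known. In every gene shown the filled markers lie on one side of the open ones, and the filled circle, replicate 1, is nearest to them. Of 2958 called genes, the groups did not overlap in 2794 and replicate 1 was nearest in 2823.

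Of 24 elastic fiber and microfibril genes tested, 7 rose and 4 fell (median log2 fold change 0.13, against 0.01 over all genes tested), against 8 and 4 with the span trend removed, 9 and 7 without replicate 1. <i>MFAP2</i>, a glycoprotein bound to fibrillin microfibrils, had 2816, 3033 and 2829.9 normalized counts with IL-1β and 3306, 4478 and 5026 with IL-1β + LOXL2 (log2 fold change 0.56, standard error 0.13, adjusted p = 0.0209 from edgeR). <i>MFAP4</i> (0.47), <i>MFAP5</i> (0.47), <i>EFEMP2</i>, which brings lysyl oxidase to tropoelastin (0.37), and <i>FBLN2</i> (0.32) rose with it. The fibrillins, the backbone of microfibrils, fell: <i>FBN1</i> had 27379, 23275 and 27177 with IL-1β and 20554, 14588 and 12772 with IL-1β + LOXL2 (log2 fold change -0.70, standard error 0.15, adjusted p = 0.0199) and <i>FBN2</i> had 863, 1075 and 906 with IL-1β and 613, 493 and 421 with IL-1β + LOXL2 (log2 fold change -0.90, standard error 0.14, adjusted p = 0.019). In <i>MFAP2</i> the IL-1β + LOXL2 libraries were the higher ones and in both fibrillins the lower ones, without overlap. The 5 lysyl oxidase genes had 0 members that rose and 0 that fell by edgeR (0 and 1 with the trend removed, 1 and 1 without replicate 1).

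Among 29 collagen chain genes 1 rose and 4 fell (median -0.13), against 5 and 1 with the span trend removed, 5 and 11 without replicate 1, and a median of 0.06 with the trend removed. <i>COL18A1</i>, the basement membrane collagen that gives rise to endostatin, rose from low counts, with 23.6, 24.9 and 27.5 with IL-1β and 34.4, 59.9 and 43.1 with IL-1β + LOXL2 (log2 fold change 0.83, standard error 0.27, adjusted p = 0.0473 from edgeR). <i>COL5A1</i> (-0.37), which starts collagen I fibrils, and <i>COL15A1</i> (-0.32) fell beside <i>COL12A1</i> and <i>COL6A3</i>, but without the span trend <i>COL12A1</i> alone of the 4 still did. Of 25 genes for the modification and export of collagen, 4 rose and 2 fell (2 and 0 with the trend removed, 10 and 4 without replicate 1): <i>PPIB</i>, the cyclophilin of procollagen folding (0.45), the prolyl 3-hydroxylase family genes <i>P3H3</i> (0.41) and <i>P3H4</i> (0.35) and <i>PCOLCE</i>, the enhancer of procollagen C-proteinase (0.38), were higher, and <i>PLOD2</i>, the telopeptide lysyl hydroxylase (-0.40), and <i>SEC23A</i> of the collagen-carrying COPII coat (-0.42) were lower.

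Of 14 laminins, nidogens and other basement membrane genes, 0 rose and 6 fell (median -0.39; 0 and 3 with the span trend removed, 0 and 10 without replicate 1), led by the laminin chains <i>LAMA5</i> (-0.88) and <i>LAMC1</i> (-0.55) and the linker <i>NID2</i> (-0.51). <i>VCAN</i>, the large hyaluronan-binding proteoglycan of provisional matrix, had 42306, 41928 and 42554 normalized counts with IL-1β and 29452, 21108 and 17371 with IL-1β + LOXL2 (log2 fold change -0.90, standard error 0.15, adjusted p = 0.019 from edgeR). <i>HAS2</i>, the main hyaluronan synthase, had 242, 234 and 300.2 with IL-1β and 175, 116 and 125 with IL-1β + LOXL2 (log2 fold change -0.89, standard error 0.17, adjusted p = 0.019). Both fell without overlap and with IL-1β + LOXL2 replicate 1 highest of its group. The hyaluronan list as a whole had 1 of 13 members that rose (<i>HYAL3</i>, 0.54) and 3 that fell (0 and 2 with the trend removed, 3 and 5 without replicate 1), the last being <i>CEMIP</i>, a hyaluronan-degrading protein (-0.35).

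Enzymes of glycosaminoglycan synthesis and sulfation numbered 41, of which 2 rose and 11 fell (median -0.19; 4 and 6 with the span trend removed, 6 and 17 without replicate 1, and a median of -0.01 with the trend removed). Besides <i>HS2ST1</i>, <i>SLC26A2</i>, the sulfate importer whose loss causes chondrodysplasia, had 969.5, 903 and 1021 normalized counts with IL-1β and 771, 488 and 506 with IL-1β + LOXL2 (log2 fold change -0.71, standard error 0.15, adjusted p = 0.0199 from edgeR). <i>XYLT1</i>, which starts the chains on the core protein, had 1576, 1385 and 1547 with IL-1β and 1115, 861 and 799 with IL-1β + LOXL2 (log2 fold change -0.70, standard error 0.12, adjusted p = 0.019). Both still fell with the trend removed. The chondroitin sulfate enzymes <i>CHSY1</i> (-0.42) and <i>CHST3</i> (-0.42) fell, and <i>CHST12</i> (0.34) and <i>B3GAT3</i> of the linker region (0.44) rose. The 10 small leucine-rich proteoglycans had 1 that fell, <i>OMD</i> (-1.02, groups overlapping), and 0 that rose (0 and 1 with the trend removed, 1 and 3 without replicate 1). Of 24 integrin subunits 0 rose and 7 fell (1 and 3 with the trend removed, 3 and 9 without replicate 1), from <i>ITGA9</i>, which binds tenascin (-1.13), to <i>ITGA8</i> (-0.32), with <i>ITGAV</i>, <i>ITGA6</i> and <i>ITGB8</i>, a partner of <i>ITGAV</i> in the activation of latent TGF-β, between them. The cadherins <i>FAT1</i> (-0.76) and <i>FAT4</i> (-0.74) were 2 of the 3 that fell among 17 cadherin and protocadherin genes, where 0 rose (0 and 3 with the trend removed, 0 and 11 without replicate 1). <i>THBS1</i> (-0.44, groups overlapping) and <i>TNC</i> (-0.45), matricellular proteins that modulate adhesion, fell, and <i>SMOC2</i> (0.34) rose, among 1 that rose and 3 that fell of 13 (1 and 2 with the trend removed, 1 and 4 without replicate 1).

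Of 20 chondrocyte identity genes 1 rose and 3 fell (median -0.15; 2 and 2 with the span trend removed, 3 and 7 without replicate 1). <i>COMP</i>, the pentameric cartilage oligomeric matrix protein that binds collagen fibrils, had 1992, 2073 and 1948 normalized counts with IL-1β and 2239, 2739.6 and 2790.4 with IL-1β + LOXL2 (log2 fold change 0.37, standard error 0.10, adjusted p = 0.0283 from edgeR). <i>SOX5</i>, a cofactor of SOX9 on cartilage enhancers, had 382, 319 and 327 with IL-1β and 264, 172 and 175 with IL-1β + LOXL2 (log2 fold change -0.74, standard error 0.17, adjusted p = 0.0204), and its paralog <i>SOX6</i> (-0.57) and <i>TRPS1</i>, a repressor in the growth plate (-0.61), fell too. <i>COMP</i> was higher and <i>SOX5</i> lower in every IL-1β + LOXL2 library than in any IL-1β library. With the span trend removed <i>COMP</i> (0.22, adjusted p = 0.072 from edgeR) and <i>SOX6</i> (adjusted p = 0.0997) lost their calls. <i>SOX9</i> (-0.15, adjusted p = 0.299) and <i>COL11A1</i> (-0.23, adjusted p = 0.14) did not pass.

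Of 55 Wnt pathway genes, 5 rose and 12 fell (median -0.07; 6 and 7 with the span trend removed, 7 and 15 without replicate 1). <i>LRP6</i>, the coreceptor of canonical Wnt signals, had 486, 372 and 471 normalized counts with IL-1β and 239, 150.3 and 166 with IL-1β + LOXL2 (log2 fold change -1.25, standard error 0.17, adjusted p = 0.0188 from edgeR). The ligand <i>WNT5A</i> had 2698, 2612 and 2696 with IL-1β and 2112, 1707 and 1604 with IL-1β + LOXL2 (log2 fold change -0.56, standard error 0.11, adjusted p = 0.019), and its paralog <i>WNT5B</i> went the other way, with 172, 156 and 146 with IL-1β and 204, 202 and 232 with IL-1β + LOXL2 (log2 fold change 0.43, standard error 0.13, adjusted p = 0.0387). In these genes the groups did not overlap. The intracellular antagonist <i>APC</i> (-0.69), the receptor <i>LRP4</i> (-0.62), the R-spondin receptor <i>LGR4</i> (-0.58) and β-catenin itself, <i>CTNNB1</i> (-0.33), also fell. The secreted antagonists <i>SFRP2</i> (1.55) and <i>SFRP5</i> (0.63) and the receptor <i>FZD2</i> (0.63) rose. The calls of <i>LGR4</i> (adjusted p = 0.072 from edgeR), <i>CTNNB1</i> (0.101), <i>SFRP5</i> (0.114) and <i>FZD2</i> (0.0882) were lost with the span trend removed. <i>SFRP2</i> was near the limit of detection, with 4.49, 5.18 and 4.23 with IL-1β and 13.9, 14.7 and 12.9 with IL-1β + LOXL2.

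The discoidin receptor <i>DDR2</i>, a kinase that senses fibrillar collagen and is known in cartilage for inducing <i>MMP13</i>, had 2887, 2492 and 2955 normalized counts with IL-1β and 1767, 989.6 and 736 with IL-1β + LOXL2 (log2 fold change -1.25, standard error 0.23, adjusted p = 0.019 from edgeR). It belonged to a list of 41 FGF, EGF and PDGF pathway genes of which 1 rose and 9 fell (median -0.19; 2 and 5 with the span trend removed, 5 and 17 without replicate 1). Among these were the ligands <i>EREG</i> (-0.78) and <i>HGF</i> (-0.71), the receptor <i>PDGFRA</i> (-0.46) and the ERK feedback genes <i>SPRY4</i> (-0.62), <i>SPRED1</i> (-0.53) and <i>ETV5</i> (-0.73), while <i>ETV4</i> (0.36) rose. Of 51 TGF-β, activin and BMP genes, 1 rose, <i>INHBA</i> of activin A, which had 462, 567 and 492 with IL-1β and 529, 869 and 909 with IL-1β + LOXL2, and 8 fell (1 and 2 with the trend removed, 4 and 20 without replicate 1). In <i>INHBA</i> replicate 1 of IL-1β + LOXL2 lay within the IL-1β range. Those that fell included the receptors <i>BMPR2</i> (-0.63), <i>TGFBR1</i> (-0.36) and <i>TGFBR3</i> (-0.45) and the signal transducers <i>SMAD3</i> (-0.37), <i>SMAD5</i> (-0.52) and <i>SMAD9</i> (-0.58), and of these <i>BMPR2</i> alone passed with the trend removed.

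In the IGF axis (18 tested, 2 rose, 5 fell; 4 and 1 with the span trend removed, 3 and 6 without replicate 1) the binding proteins <i>IGFBP2</i> and <i>IGFBP6</i> (0.34) rose, and the receptors <i>IGF1R</i> (-0.29), <i>IGF2R</i> (-0.39) and <i>INSR</i> (-0.45) and the adaptor <i>IRS1</i> (-0.46) fell. With the trend removed <i>IGF1R</i> stood at 0.01. <i>PAPPA</i>, the protease that cleaves IGF-binding proteins, fell from low counts, with 16.8, 12.4 and 14.8 normalized counts with IL-1β and 3.27, 4.52 and 0.86 with IL-1β + LOXL2 (log2 fold change -2.35, standard error 0.51, adjusted p = 0.0199 from edgeR). The Hippo list holds genes that restrain the coactivators YAP and TAZ and also genes that act with these coactivators. It had 0 of 28 that rose and 10 that fell (median -0.30; 1 and 7 with the trend removed, 2 and 19 without replicate 1, and a median of -0.16 with the trend removed). <i>LIMD1</i>, a LIM protein that binds LATS kinases, had 546, 354 and 496 with IL-1β and 298, 143 and 129 with IL-1β + LOXL2 (log2 fold change -1.28, standard error 0.26, adjusted p = 0.0197). <i>PTPN14</i>, a phosphatase that holds YAP in the cytoplasm, had 999.9, 931 and 1034 with IL-1β and 639, 428 and 426 with IL-1β + LOXL2 (log2 fold change -0.99, standard error 0.14, adjusted p = 0.019). The kinase <i>LATS1</i> (-0.56), the transcription factor <i>TEAD1</i> (-0.62) and its cofactor <i>VGLL3</i> (-0.75) fell with them. All 5 still fell with the trend removed. In Notch and hedgehog signaling 1 of 27 rose, the glycosyltransferase <i>RFNG</i> (0.43), and 7 fell (0 and 4 with the trend removed, 1 and 14 without replicate 1), among them <i>NOTCH2</i> (-0.76), its ligand <i>JAG1</i> (-0.56), the hedgehog receptor <i>PTCH1</i> (-0.69) and <i>GLI3</i> (-0.55).

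In the IL-1 and NF-κB cascade, 0 of 45 genes rose and 8 fell (median -0.09; 0 and 5 with the span trend removed, 7 and 16 without replicate 1). <i>REL</i>, the c-Rel subunit of NF-κB, had 108, 73.5 and 76.1 normalized counts with IL-1β and 54.0, 27.1 and 22.4 with IL-1β + LOXL2 (log2 fold change -1.29, standard error 0.30, adjusted p = 0.0209 from edgeR). <i>IL1RAP</i>, the accessory chain without which the IL-1 receptor does not signal, had 192, 180.2 and 187 with IL-1β and 153, 98.3 and 61.2 with IL-1β + LOXL2 (log2 fold change -0.83, standard error 0.25, adjusted p = 0.0354). <i>IRAK3</i>, a brake on IRAK signaling, had 451, 415 and 412 with IL-1β and 313, 271 and 199 with IL-1β + LOXL2 (log2 fold change -0.71, standard error 0.15, adjusted p = 0.0199). All 3 were without overlap, and <i>IL1RAP</i> lost its call with the span trend removed (adjusted p = 0.0742). Others that fell were the adaptors <i>TAB2</i> (-0.36) and <i>TAB3</i> (-0.56), and the NF-κB targets <i>NFKBIZ</i> (-0.44), <i>TRAF1</i> (-0.36) and <i>BIRC3</i> (-0.36). Of 30 cytokines and chemokines tested, 2 rose (<i>MIF</i>, 0.57, with overlap, and <i>TNFSF12</i>, 0.32) and 2 fell (1 and 3 with the trend removed, 4 and 5 without replicate 1). <i>TNFSF15</i>, a TNF family ligand, had 796, 943 and 799 with IL-1β and 547, 331 and 209 with IL-1β + LOXL2 (log2 fold change -1.22, standard error 0.25, adjusted p = 0.0193), and the IL-6 family ligand <i>LIF</i> fell by less (-0.45).

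Immediate early genes, which respond to a stimulus within the hour, had 2 of 45 that rose (<i>JUND</i>, 0.41, and <i>GADD45A</i>, 0.37) and 5 that fell, against 0 and 8 with the span trend removed, 9 and 11 without replicate 1. The median went from -0.03 to -0.16 with the trend removed. The AP-1 subunits <i>FOSL1</i> (-0.41) and <i>FOSL2</i> (-0.45), <i>KLF6</i> (-0.36) and the nuclear receptor <i>NR4A3</i> (-0.71) were lower. In prostaglandin metabolism 0 of 12 rose and 3 fell (0 and 2 with the trend removed, 1 and 5 without replicate 1): besides <i>PTGS2</i> (-0.71), these were <i>ABCC4</i>, an exporter of prostaglandin E2 (-0.68), and <i>PLA2G4A</i>, which frees arachidonic acid (-0.39). Of 46 interferon-stimulated and sensing genes, 2 rose and 3 fell (1 and 3 with the trend removed, 7 and 12 without replicate 1), and <i>EIF2AK2</i>, the kinase PKR that is activated by double-stranded RNA, had 358, 255 and 329 normalized counts with IL-1β and 204, 114 and 118 with IL-1β + LOXL2 (log2 fold change -1.09, standard error 0.21, adjusted p = 0.019 from edgeR). <i>DDX58</i>, the RNA helicase RIG-I, had 140.3, 120.2 and 152 with IL-1β and 111, 72.3 and 45.7 with IL-1β + LOXL2 (log2 fold change -0.84, standard error 0.26, adjusted p = 0.0385). Neither overlapped between groups, and <i>DDX58</i> lost its call with the trend removed (adjusted p = 0.0575). Besides <i>IFI6</i>, <i>LGALS3BP</i> rose (0.29).

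Of 15 copper genes, 4 rose and 1 fell (median 0.10; 4 and 2 with the span trend removed, 5 and 3 without replicate 1). The copper chaperones <i>ATOX1</i>, which hands copper to ATP7A, and <i>CCS</i>, which loads superoxide dismutase, had 356, 371 and 334 normalized counts with IL-1β and 391, 463 and 543 with IL-1β + LOXL2 (log2 fold change 0.40, standard error 0.13, adjusted p = 0.0462 from edgeR) and 467, 459 and 463 with IL-1β and 539, 667 and 786 with IL-1β + LOXL2 (log2 fold change 0.52, standard error 0.13, adjusted p = 0.0238), respectively. <i>COMMD1</i>, which binds copper and acts in endosomal sorting (0.49), and <i>CUTA</i> (0.60) rose too, opposite to the copper pump <i>ATP7A</i>. Zinc genes had 0 of 19 that rose and 8 that fell (median -0.26; 1 and 4 with the trend removed, 3 and 11 without replicate 1): importers such as <i>SLC39A8</i>, known in cartilage for raising matrix proteases (-0.73), <i>SLC39A14</i> (-0.46) and <i>SLC39A6</i> (-0.48), the exporter <i>SLC30A1</i> (-0.39) and the zinc sensor <i>MTF1</i> (-0.43). In iron handling, the ferritins <i>FTL</i> and <i>FTH1</i> (0.40, groups overlapping) and the scaffold <i>ISCU</i> (0.35) rose and the transferrin receptor <i>TFRC</i> (-0.40) and the iron sensor <i>IREB2</i> (-0.44) fell among 14 tested (1 and 0 with the span trend removed, 4 and 3 without replicate 1). Of these 5 calls none stayed with the trend removed.

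Of 18 WNK kinase and cation-chloride cotransport genes, 0 rose and 5 fell (median -0.24), against 0 and 5 with the span trend removed, 1 and 12 without replicate 1. <i>WNK3</i>, a chloride-sensing kinase, had 23.6, 22.8 and 33.8 normalized counts with IL-1β and 4.91, 3.39 and 6.04 with IL-1β + LOXL2 (log2 fold change -2.43, standard error 0.38, adjusted p = 0.019 from edgeR), which is close to the limit of detection with LOXL2. <i>LRRC8B</i>, a subunit of the volume-regulated anion channel, had 199, 168 and 210.4 with IL-1β and 121, 84.7 and 86.3 with IL-1β + LOXL2 (log2 fold change -0.97, standard error 0.17, adjusted p = 0.019). Its paralog <i>LRRC8C</i> (-0.96) and <i>WNK1</i> (-0.55) fell too. Of 26 mechanosensitive and calcium channel genes, 0 rose and 10 fell (median -0.28; 0 and 3 with the trend removed, 4 and 14 without replicate 1), including the calcium release channels <i>ITPR1</i> (-0.69, groups overlapping) and <i>ITPR2</i> (-0.68), the plasma membrane pumps <i>ATP2B1</i> (-0.46) and <i>ATP2B4</i> (-0.72) and the polycystins <i>PKD1</i> (-0.46) and <i>PKD2</i> (-0.47).

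Ribosomal protein genes rose nearly as a body. Of 80 cytosolic ribosomal protein genes tested, 75 rose and 0 fell, and the log2 fold change was above 0 in all 80 (median 0.44). With the span trend removed 37 rose and 0 fell and the median was 0.25, and without IL-1β + LOXL2 replicate 1 80 rose and 0 fell. Their median span is 3671.5 bases, and they have many near-identical pseudogenes, so their counts are uncertain. Their share of all counts was 4.09%, 4.27% and 3.96% in the IL-1β libraries and 4.71%, 5.57% and 6.28% in the IL-1β + LOXL2 libraries. <i>RPSA</i>, the laminin receptor of the small subunit, led with 8914, 9301 and 9113 normalized counts with IL-1β and 10701, 13941 and 16923 with IL-1β + LOXL2 (log2 fold change 0.61, standard error 0.13, adjusted p = 0.02 from edgeR). Each IL-1β + LOXL2 library was above the IL-1β range, replicate 1 least. Of 66 translation factors, 16 rose and 5 fell (8 and 3 with the trend removed, 29 and 14 without replicate 1). The elongation factor <i>EEF1D</i> (0.58), the <i>EIF3</i> subunits <i>EIF3G</i> (0.46) and <i>EIF3K</i> (0.46) and <i>EIF6</i> (0.42) rose, and the eIF2α kinases <i>EIF2AK3</i> (-0.38) and <i>EIF2AK4</i> (-0.46), which slow initiation under stress, fell with <i>EIF2AK2</i>. Of 40 aminoacyl-tRNA synthetase genes, 4 rose and 1 fell (8 and 1 with the trend removed, 13 and 5 without replicate 1).

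Of 49 proteasome genes, 22 rose and 1 fell (median 0.32; 8 and 0 with the span trend removed, 33 and 1 without replicate 1, and a median of 0.20 with the trend removed). <i>PSMC3</i>, an ATPase of the regulatory base, had 2507, 2566 and 2499 normalized counts with IL-1β and 2957, 3726 and 4302 with IL-1β + LOXL2 (log2 fold change 0.54, standard error 0.12, adjusted p = 0.0204 from edgeR), and the immunoproteasome subunit <i>PSMB10</i> had 419, 426 and 343 with IL-1β and 455, 611 and 679 with IL-1β + LOXL2 (log2 fold change 0.55, standard error 0.15, adjusted p = 0.027). <i>PSMB10</i> lost its call with the trend removed (adjusted p = 0.0653). The gene that fell was the activator <i>PSME4</i> (-0.43, groups overlapping). Of 39 genes of cullins and selected ubiquitin ligases, 0 rose and 16 fell (median -0.33; 2 and 10 with the trend removed, 1 and 28 without replicate 1). <i>UBR3</i>, of the N-degron ligase family, had 678, 596 and 627 with IL-1β and 473, 312 and 289 with IL-1β + LOXL2 (log2 fold change -0.82, standard error 0.16, adjusted p = 0.019), and the ligases <i>MYCBP2</i> (-0.79), <i>RNF213</i> (-0.76), <i>BIRC6</i> (-0.75) and <i>HUWE1</i> (-0.69) fell too. Their median span is 114621 bases, against 10486 for the proteasome list. Ubiquitin-like proteins and E2 enzymes had 10 of 41 that rose and 1 that fell (7 and 1 with the trend removed, 24 and 3 without replicate 1), with <i>UBL4A</i> (0.52) and the ligase partner <i>UBE2L3</i> (0.41) among those higher and the ER enzyme <i>UBE2J1</i> (-0.33) lower.

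Of 37 cytosolic chaperone genes 8 rose and 1 fell (3 and 1 with the span trend removed, 19 and 2 without replicate 1), with the small heat shock proteins <i>HSPB1</i> (0.51) and <i>CRYAB</i> (0.50) and the tubulin-folding prefoldins <i>PFDN6</i> (0.50) and <i>PFDN1</i> (0.49) higher and <i>HSPH1</i> (-0.33) lower. The calls of <i>HSPB1</i> (adjusted p = 0.0566 from edgeR), <i>CRYAB</i> (0.064) and <i>PFDN6</i> (0.115) were lost with the trend removed. The ER list had 7 of 47 that rose and 6 that fell (7 and 3 with the trend removed, 22 and 10 without replicate 1). Translocon parts such as <i>SSR4</i> (0.47) and <i>SEC61G</i> (0.46) rose, whereas the stress sensor IRE1, <i>ERN1</i> (-0.59), and <i>SEL1L</i>, the scaffold of ER-associated degradation, fell. <i>SEL1L</i> had 2428, 1986 and 2403 normalized counts with IL-1β and 1656, 859.7 and 726 with IL-1β + LOXL2 (log2 fold change -1.07, standard error 0.23, adjusted p = 0.0199 from edgeR), without overlap. In the lysosome list, 12 of 49 rose and 5 fell (median 0.16; 10 and 3 with the trend removed, 21 and 7 without replicate 1). <i>CTSD</i>, the main aspartic protease of lysosomes, had 12487, 14491 and 13124 with IL-1β and 15046, 19975 and 20657 with IL-1β + LOXL2 (log2 fold change 0.47, standard error 0.12, adjusted p = 0.0237), and arylsulfatase A, <i>ARSA</i> (0.60), cathepsin H, <i>CTSH</i> (0.41, groups overlapping), and progranulin, <i>GRN</i> (0.37), rose with it. α-Galactosidase, <i>GLA</i> (-0.84), fell. Of 19 subunits of the V-ATPase, the proton pump of lysosomes, 5 rose and 0 fell (3 and 0 with the trend removed, 10 and 2 without replicate 1). Of 39 autophagy genes 2 rose and 4 fell (4 and 3 with the trend removed, 13 and 8 without replicate 1), the latter with the scaffold <i>WDFY3</i> (-0.69).

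In the nucleus, chromatin enzymes had the largest number of genes that fell of any list in the fit of all 6 libraries. Without IL-1β + LOXL2 replicate 1 the longer list of numbered zinc finger genes had more (72 against 57). Of 85 histone methylation and chromatin remodeling genes, 2 rose and 39 fell (median -0.29). With the span trend removed 3 rose and 23 fell (median -0.18), and without IL-1β + LOXL2 replicate 1 5 rose and 57 fell. <i>KDM5A</i>, a histone H3K4 demethylase, had 900.0, 744 and 943 normalized counts with IL-1β and 612, 326 and 266 with IL-1β + LOXL2 (log2 fold change -1.10, standard error 0.24, adjusted p = 0.0199 from edgeR). <i>KMT2A</i>, an H3K4 methyltransferase, had 1451, 1104 and 1463 with IL-1β and 919, 626 and 612 with IL-1β + LOXL2 (log2 fold change -0.89, standard error 0.16, adjusted p = 0.019), so writers and erasers of the same mark both fell. Among the others were <i>KMT2C</i> (-0.85) and <i>KMT2D</i> (-0.85), the DNA demethylases <i>TET1</i> (-1.11), <i>TET2</i> (-0.82) and <i>TET3</i> (-0.80), the acetyltransferases <i>EP300</i> (-0.67) and <i>CREBBP</i> (-0.53) and the remodelers <i>CHD9</i> (-0.77) and <i>CHD7</i> (-0.73). All of these still fell with the trend removed. The SWI/SNF subunits <i>SMARCB1</i> (0.52) and <i>SMARCD3</i> (0.43) rose. Of 18 histone deacetylase and sirtuin genes 2 rose, <i>HDAC11</i> (0.54) and <i>HDAC10</i> (0.51), and 0 fell (2 and 0 with the trend removed, 7 and 3 without replicate 1). Numbered zinc finger (ZNF) genes had 13 of 233 that rose and 31 that fell (median -0.12; 6 and 22 with the trend removed, 37 and 72 without replicate 1).

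Of 46 RNA polymerase II and general factor genes, 11 rose and 7 fell (3 and 2 with the span trend removed, 17 and 9 without replicate 1). <i>POLR2L</i>, a small polymerase subunit, had 452, 386 and 423 normalized counts with IL-1β and 528, 655 and 832 with IL-1β + LOXL2 (log2 fold change 0.68, standard error 0.15, adjusted p = 0.02 from edgeR). <i>POLR2A</i>, the largest, had 3905, 3202 and 3597 with IL-1β and 3002, 2292 and 1979 with IL-1β + LOXL2 (log2 fold change -0.56, standard error 0.14, adjusted p = 0.0229). The groups were apart in both, in opposite directions, and both calls stayed with the trend removed (0.45 and -0.56). Of 33 Mediator genes 3 rose and 8 fell (2 and 4 with the trend removed, 13 and 11 without replicate 1), the latter including the kinase module parts <i>MED12</i> (-0.81), <i>MED13</i> (-0.63) and <i>MED13L</i> (-0.76). Of 47 spliceosomal snRNP genes 13 rose and 3 fell (median 0.28; 6 and 3 with the trend removed, 30 and 8 without replicate 1). <i>LSM3</i> (0.57) and <i>SNRPD2</i> (0.55), ring proteins around the snRNAs, were higher, and the catalytic core scaffold <i>PRPF8</i> (-0.45) and <i>SF3B1</i> (-0.40) were lower.

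Of 21 nuclear subunits of complexes II to V, 12 rose and 0 fell (median 0.37; 7 and 0 with the span trend removed, 20 and 0 without replicate 1), and of 24 genes of protein import (TIM and TOM complexes) 12 rose and 0 fell (median 0.35; 4 and 0 with the trend removed, 17 and 0 without replicate 1). The small chaperones <i>TIMM9</i> (0.60) and <i>TIMM10</i> (0.60), which guide carriers through the intermembrane space, kept their calls with the trend removed. Genes of the mitochondrial DNA, whose transcripts do not pass through the nucleus, had 1 of 12 that rose, <i>ND3</i> (0.55), and 0 that fell, with a median of -0.08. With the span trend removed the counts turned to 0 and 5 (median -0.30), and <i>ND3</i> lost its call. The counts were 3 and 4 without replicate 1. Their share of all counts was 0.231%, 0.237% and 0.221% with IL-1β and 0.214%, 0.220% and 0.203% with IL-1β + LOXL2.

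Of 45 peroxide, thioredoxin and superoxide genes, 13 rose and 2 fell (median 0.23; 10 and 1 with the span trend removed, 24 and 3 without replicate 1). <i>GPX1</i>, a selenium-dependent glutathione peroxidase, had 2614, 2786 and 2511 normalized counts with IL-1β and 3039.9, 4105 and 4630.2 with IL-1β + LOXL2 (log2 fold change 0.57, standard error 0.13, adjusted p = 0.0207 from edgeR), and the peroxiredoxins <i>PRDX5</i> (0.56), <i>PRDX2</i> (0.46) and <i>PRDX4</i> (0.40), thioredoxin <i>TXN</i> (0.39) and the methionine sulfoxide reductase <i>MSRB1</i> (0.58) rose with it. Those that fell were <i>GCLM</i> of glutathione synthesis (-0.35) and <i>TXNRD1</i> (-0.36). Of 25 glycolysis genes, 3 rose and 6 fell (median 0.05; 3 and 5 with the trend removed, 10 and 7 without replicate 1). Those that fell were the glucose transporters <i>SLC2A3</i> (-0.90) and <i>SLC2A1</i> (-0.32), hexokinase <i>HK2</i> (-0.73), <i>PFKFB2</i> (-0.83), <i>PFKL</i> (-0.47) and the lactate transporter <i>SLC16A1</i> (-0.32). Those that rose were <i>GAPDH</i>, <i>ENO3</i> (0.53) and <i>LDHB</i> (0.31). <i>SLC2A3</i> had 380.4, 469 and 430.2 with IL-1β and 359.8, 214 and 109 with IL-1β + LOXL2 (log2 fold change -0.90, standard error 0.29, adjusted p = 0.046), with IL-1β + LOXL2 replicate 1 close below the IL-1β range. In the hypoxia list 0 of 22 rose and 4 fell (0 and 3 with the trend removed, 2 and 10 without replicate 1). The factor <i>EPAS1</i>, or HIF-2α, known in cartilage for inducing catabolic genes, had 25768, 33506 and 28208 with IL-1β and 22978, 17108 and 12663 with IL-1β + LOXL2 (log2 fold change -0.73, standard error 0.17, adjusted p = 0.0219), and <i>HIF1A</i> fell by less (-0.35) and lost its call with the trend removed.

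In cholesterol metabolism 7 of 33 rose and 5 fell (6 and 3 with the span trend removed, 9 and 9 without replicate 1). <i>APOE</i>, an acceptor of cell cholesterol, had 8083, 10313 and 8277 normalized counts with IL-1β and 10735, 15292 and 16810.5 with IL-1β + LOXL2 (log2 fold change 0.68, standard error 0.15, adjusted p = 0.02 from edgeR). <i>ABCA1</i>, the pump that exports cholesterol to such acceptors, had 569, 625 and 653 with IL-1β and 405, 298 and 195 with IL-1β + LOXL2 (log2 fold change -1.04, standard error 0.20, adjusted p = 0.019). Both are targets of the liver X receptors, and they moved in opposite directions with no overlap between groups. Among enzymes of the mevalonate pathway were <i>MVD</i> (0.49), <i>MVK</i> (0.42) and <i>FDPS</i> (0.39) higher and <i>PMVK</i> (-0.68) lower.

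Cell death genes of the BCL2 family, in which the balance of killers and protectors sets whether mitochondria are breached, had 3 of 15 that rose and 1 that fell (5 and 2 with the span trend removed, 7 and 3 without replicate 1). The members that rose promote death: <i>BAD</i> had 521, 571 and 536 normalized counts with IL-1β and 600.3, 915 and 959 with IL-1β + LOXL2 (log2 fold change 0.60, standard error 0.15, adjusted p = 0.0241 from edgeR), <i>BAX</i>, which forms the pore, had 840.5, 899 and 883 with IL-1β and 1041, 1147 and 1288 with IL-1β + LOXL2 (log2 fold change 0.41, standard error 0.10, adjusted p = 0.0237), and <i>BID</i> rose by less (0.38). The protector <i>BCL2</i> had 159, 127 and 154 with IL-1β and 103, 72.3 and 56.9 with IL-1β + LOXL2 (log2 fold change -0.92, standard error 0.21, adjusted p = 0.0205). All 4 kept their calls with the trend removed, and none of the groups overlapped in <i>BAD</i>, <i>BAX</i> or <i>BCL2</i>. Of 33 p53 regulators and targets, 3 rose and 6 fell (3 and 5 with the trend removed, 6 and 12 without replicate 1). The p53 inhibitor <i>MDM4</i> had 426, 358 and 374 with IL-1β and 219, 150.3 and 142 with IL-1β + LOXL2 (log2 fold change -1.17, standard error 0.16, adjusted p = 0.0188), and the damage kinases <i>ATM</i> (-0.85) and <i>ATR</i> (-0.57, groups overlapping) and the ligase <i>MDM2</i> (-0.35) fell too. The targets <i>BAX</i>, <i>FDXR</i> (0.50) and <i>GADD45A</i> rose, and the targets <i>TP53INP1</i> (-0.40) and <i>ZMAT3</i> (-0.36, groups overlapping) fell.

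Of 59 mitosis genes, 1 rose and 12 fell (median -0.15; 0 and 6 with the span trend removed, 8 and 24 without replicate 1). The kinetochore scaffold <i>KNL1</i> had 378, 269 and 411 normalized counts with IL-1β and 267, 188 and 167 with IL-1β + LOXL2 (log2 fold change -0.76, standard error 0.19, adjusted p = 0.0238 from edgeR), a range in which IL-1β replicate 2 was nearly as low as IL-1β + LOXL2 replicate 1. <i>CENPF</i> (-0.61), <i>KIF15</i> (-0.65) and the proliferation marker <i>MKI67</i> (-0.44, groups overlapping) fell, and <i>CKS1B</i> (0.38) rose. <i>MKI67</i> lost its call with the trend removed (adjusted p = 0.056). DNA replication had 4 of 55 that rose, such as the small polymerase subunit <i>POLD4</i> (0.69), and 4 that fell, such as <i>PRIM1</i> (-0.62) and <i>MCM10</i> (-0.62), with a median of 0.00 (2 and 3 with the trend removed, 10 and 12 without replicate 1). Fewer cells in a phase of the cycle and less RNA per cell cannot be told apart in these bulk libraries, here or in any other list.

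Contractile genes of the smooth muscle type, which mark fibroblast-like and myofibroblastic cells, had 8 of 23 that rose and 1 that fell (median 0.15), against 9 and 0 with the span trend removed, 12 and 3 without replicate 1, and a median of 0.25 with the trend removed. <i>MYL9</i>, the regulatory myosin light chain, had 5557, 5351 and 5639.8 normalized counts with IL-1β and 7073, 9237 and 10342 with IL-1β + LOXL2 (log2 fold change 0.69, standard error 0.12, adjusted p = 0.019 from edgeR), and <i>TPM2</i> (0.61), <i>ACTA2</i> (0.54), <i>TAGLN</i> (0.53) and <i>CNN1</i> (0.52) rose with it. <i>SYNPO2</i>, an actin bundler of the Z-disc, was the decrease (-0.94). The list's summed normalized count was 251373, 236038 and 246787 with IL-1β and 256029, 278167 and 280830.5 with IL-1β + LOXL2, with filamin, <i>FLNA</i>, its most abundant gene, and the groups did not overlap. The pericyte and smooth muscle markers, a shorter list that shares genes with it, summed to 22749.7, 18956 and 22056 with IL-1β and 23874, 28314 and 29544 with IL-1β + LOXL2. <i>ACTA2</i> alone, with means of 13730 and 19910, went up by more than the sum of means did (21250 and 27240), and 5 of the 7 members tested had a log2 fold change below 0. Of 14 striated muscle genes tested 3 rose and 1 fell (2 and 0 with the span trend removed, 5 and 1 without replicate 1), <i>TNNI2</i>, <i>TCAP</i> (1.39) and <i>MYBPC2</i> (0.99) against nebulin, <i>NEB</i> (-0.77), all at low counts, and <i>ACTA1</i>, <i>CKM</i>, <i>MYOD1</i> and <i>MYOG</i> had at most 12 counts over the 6 libraries.

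Of 43 actin and tubulin genes 10 rose and 6 fell (10 and 4 with the span trend removed, 22 and 8 without replicate 1). Those that rose included the thymosins <i>TMSB10</i> (0.52) and <i>TMSB4X</i> (0.52), profilin <i>PFN1</i> (0.37) and cofilin <i>CFL1</i> (0.34), and those that fell included utrophin <i>UTRN</i> (-0.85), dystonin <i>DST</i> (-0.67) and the nesprins <i>SYNE1</i> (-0.66) and <i>SYNE2</i> (-0.57). Utrophin, dystonin, the nesprins and the thymosins kept their calls with the trend removed, and <i>PFN1</i> and <i>CFL1</i> did not. Motor and centrosome genes had 3 of 81 that rose and 22 that fell (median -0.22; 3 and 10 with the trend removed, 9 and 37 without replicate 1).

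**Figure D3:**
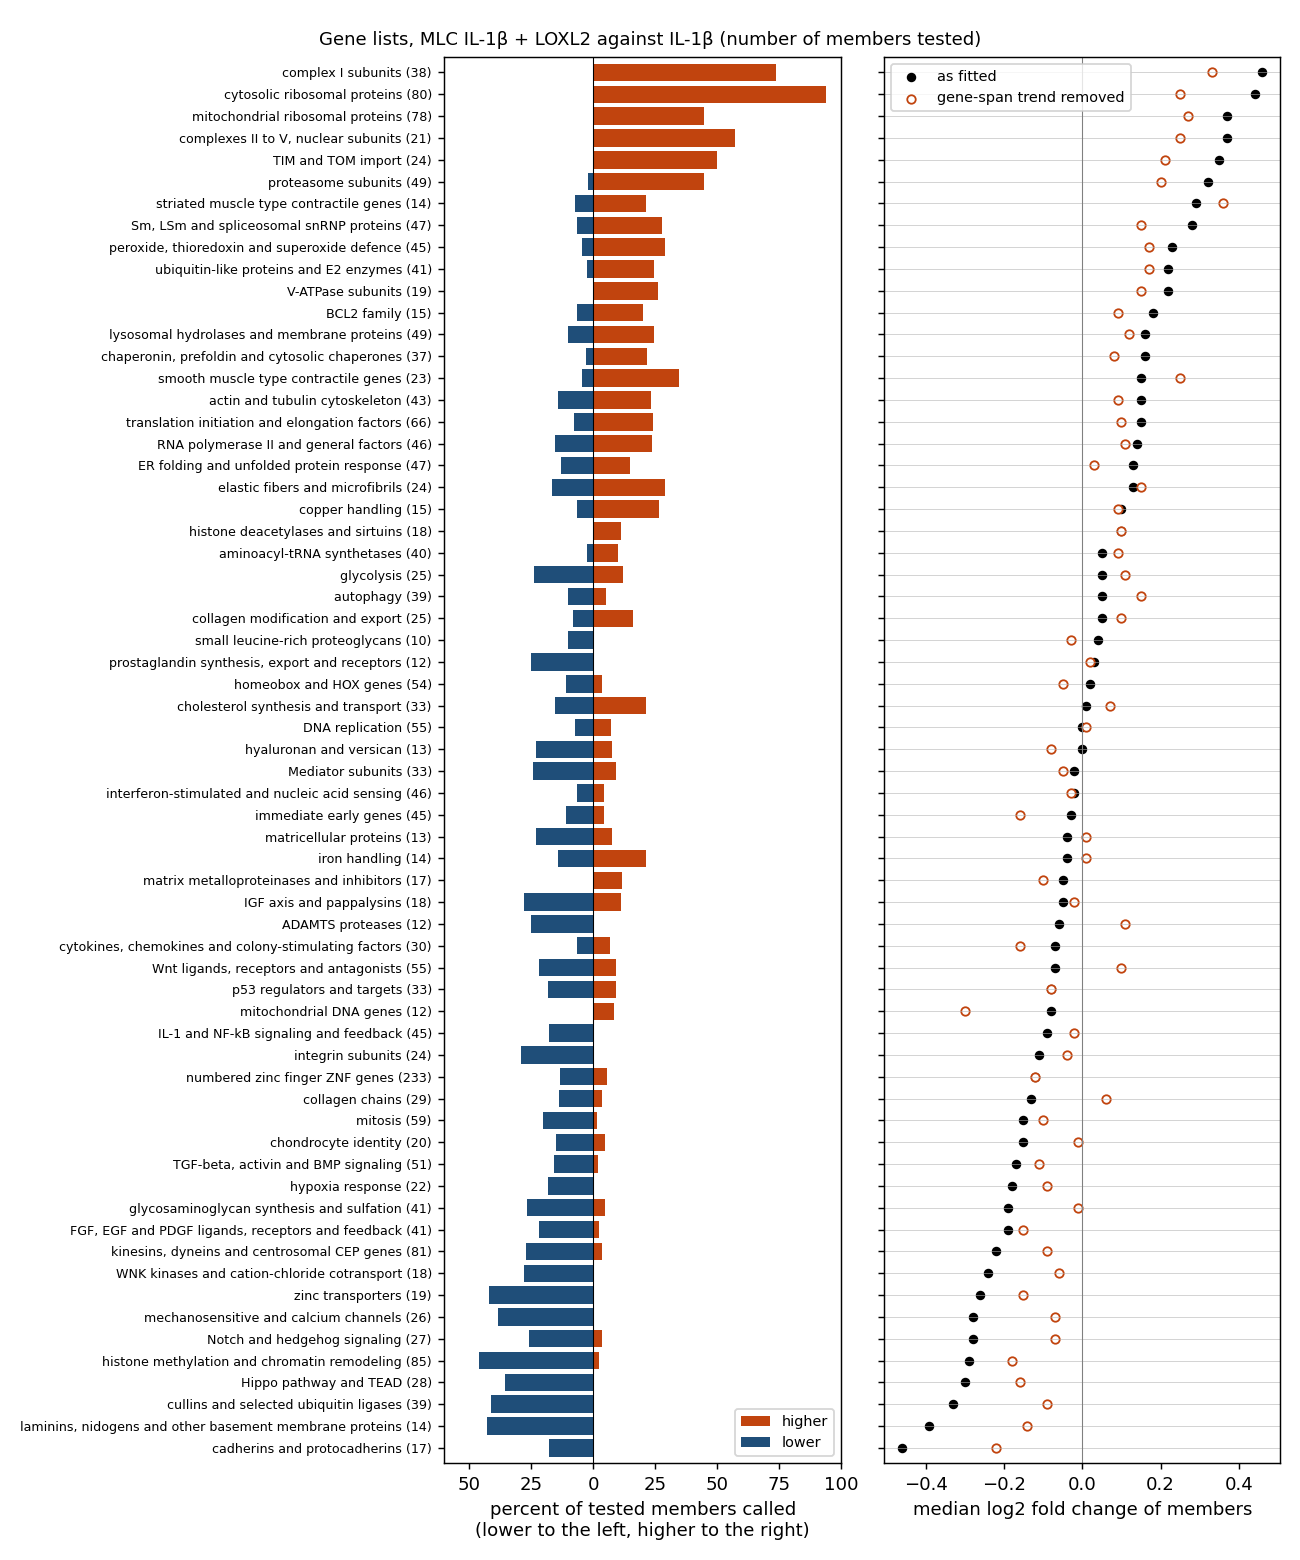
For gene lists with at least 10 members tested (number in parentheses), the percent of members called lower (left of 0) or higher (right of 0) with IL-1β + LOXL2 in MLC, and beside it the median log2 fold change as fitted (filled) and with the gene-span trend removed (open). Over all genes tested 9.81% were called higher and 11.8% lower. Cytosolic ribosomal and nuclear-encoded mitochondrial lists have the highest medians and cadherin, basement membrane and ubiquitin ligase lists the lowest, and most open points lie nearer to 0 than the filled ones.

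Whether these changes are particular to the middle layer was tested as an interaction of layer and treatment over all 12 libraries. Of 14519 genes, 0 (0%) had a LOXL2 effect that differed between MLC and SLC at an adjusted p under 0.05 from edgeR, with 327 at an unadjusted p under 0.05, and DESeq2's Wald test also gave 0 (336 unadjusted). None of the genes above can therefore be said to respond in MLC alone. A fit on all 12 libraries also called 0 genes for the LOXL2 effect in MLC itself. The lack of calls thus does not show that the layers respond alike. <i>ATRX</i> had a log2 fold change of -1.52 in MLC and -2.01 in SLC, with a difference of 0.48 (standard error 0.98). For <i>VCAN</i> the values were -0.90 and -1.54, with a difference of 0.63 (standard error 0.29), and for <i>DDR2</i> -1.25 and -1.76, with a difference of 0.50 (standard error 0.60). <i>ELN</i> had 0.32 in MLC and 0.01 in SLC, with a difference of 0.30 (standard error 0.13). Tested in SLC alone, <i>ATRX</i>, <i>DDR2</i> and <i>ELN</i> did not pass (adjusted p = 0.113, 0.0706 and 0.933 from edgeR). Without SLC IL-1β + LOXL2 replicate 1, 1 gene, <i>LOC108634776</i>, passed the interaction test (adjusted p = 0.0258 from edgeR), and the genes at an unadjusted p under 0.05 went from 327 to 3984.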

How the data were processed

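RNA was poly-T selected and sequenced in paired-end reads. The authors mapped reads to the goat genome ARS1.2 (HISAT2 is named in the submitters' processing notes) and deposited whole-number counts per gene made with featureCounts, not normalized. How strand and multiply mapped reads were handled is not given in the sources used here, so overlapping genes and close paralogs are uncertain. Of the named genes, 350 in all, 71 overlap another annotated gene, among them <i>FTL</i> and <i>BAX</i> with each other. Groups came from the labels. Rows of genes whose name occurs more than once were not joined between the layers.

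The 6 MLC libraries were tested with edgeR 4.0.16 (R 4.3.3; TMM scaling, a filter with minimum count 10 and minimum total 15, quasi-likelihood F test, Benjamini-Hochberg adjustment, threshold 0.05). Standard errors are the log2 fold change over the square root of F. Values per library are counts divided by DESeq2 1.42.0 size factors. The span trend was a lowess curve (smoother span 0.3) per library, given to edgeR as an offset. The scripts were tested on simulated data. Named genes were <i>LOXL2</i>, the 15 largest changes in each direction (mean of at least 50 normalized counts, no overlap between groups), the 5 most abundant genes called in each direction (with a symbol, no overlap between groups), and the 2 largest changes per direction in each of 75 gene lists. Another 122 genes were chosen after their values were seen or named for their role. Members and lists were chosen with earlier results of these data known. Some genes and lists are not reported here. Alternatives were other scaling, filters, DESeq2's Wald test, a replicate block, a fit on 12 libraries, removal of the span trend and each library left out. No other column of the tables was used. Library totals ranged from 14158607 to 19459045 counts.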

Additional observations from a re-analysis of the deposited data

How the results depend on the processing

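The number of MLC genes called was 2958 and stayed within 1.5 times of it with DESeq2 size factors (2972), no filter (3655), a minimum of 10 counts per library (2981), the Wald test of DESeq2 (3270), the replicate block (4053) and the span trend removed (2000; 937 lower against 1617). Fitting the 12 libraries together gave 0 (0 higher, 0 lower; 3726 at an unadjusted p under 0.05 from edgeR). In the main fit of 6 libraries, 141 of the 2958 (16 higher, 125 lower) had a change of 2-fold or more. Leaving out 1 library moved it from 0 to 6653 (0 to 3276 higher, 0 to 3377 lower), and the interaction from 0 to 1. The cause was not tested. Same-numbered libraries had correlations of deviations of 0.09, 0.14 and -0.08, and the other pairs had values from -0.19 to 0.13. With 3 libraries a group these values cannot decide whether the numbers pair the libraries. The replicate block (4053 genes) is given here alone. Of 350 named genes, 113 lost their call but kept their sign with the span trend removed. Another 4 changed sign: <i>LOXL2</i> to 0.21, <i>COL11A1</i> to 0.06, <i>COL2A1</i> to 0.03 and <i>IGF1R</i> to 0.01. None of these 4 passed the test there, so <i>IGF1R</i>, which was called in the main fit, lost its call as well. By the Wald test of DESeq2 10 named genes lost their call, <i>SLC2A3</i> (adjusted p = 0.144), <i>PFKL</i> (0.071), <i>COL18A1</i> (0.0667), <i>HYAL3</i> (0.0642), <i>ND3</i> (0.0642) and 5 without an adjusted p there, among them <i>PAPPA</i>, <i>WNK3</i>, <i>SFRP2</i> and <i>TCAP</i>. <i>COL2A1</i> ranged from -0.28 to 0.16 when 1 library was left out. The median of a list kept its sign in 72 of 75 lists with DESeq2 size factors and in 59 with the span trend removed. At 14158607 to 19459045 counts a library, genes such as <i>PAPPA</i> and <i>SFRP2</i> rest on few reads. With 3 libraries a group and 1 library between the groups, the calls describe these libraries.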

Other observations

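Homeobox genes, which pattern the face and limbs, had 2 of 54 that rose and 6 that fell (median 0.02; 1 and 2 with the span trend removed, 7 and 9 without IL-1β + LOXL2 replicate 1). <i>PRRX2</i>, a factor of craniofacial mesenchyme, had 4784, 5622 and 5019 normalized counts with IL-1β and 5980.0, 7738 and 8275 with IL-1β + LOXL2 (log2 fold change 0.51, standard error 0.12, adjusted p = 0.0209 from edgeR), and <i>SIX4</i> had 417, 389.5 and 471 with IL-1β and 369.7, 281 and 224 with IL-1β + LOXL2 (log2 fold change -0.54, standard error 0.16, adjusted p = 0.0363). The groups did not overlap in either, and both calls stayed with the trend removed. The row named <i>BARX1</i> (0.43), which is annotated as a lncRNA, rose, but lost its call with the trend removed (adjusted p = 0.0744). <i>TSHZ3</i> (-0.67) and <i>ZFHX3</i> (-0.67) fell, and the call of <i>TSHZ3</i> was lost with the trend removed (adjusted p = 0.068). Counts by annotated biotype are given for the main fit only, in which 9.81% of all genes tested rose and 11.8% fell. Of 232 transcribed pseudogenes 26 rose and 4 fell, while 1 of 129 other pseudogenes rose and 12 fell. Of 491 lncRNA genes 35 rose and 27 fell, and of 18 miRNA genes 0 rose and 0 fell by edgeR's test.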
